A study of Caenorhabditis elegans with 4 samples.

Results

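The replication-dependent core histone genes of Caenorhabditis elegans encode the H2A, H2B, H3 and H4 proteins around which DNA is wrapped, and they lie in small clusters of near-identical copies. The 50 genes examined were picked by their names and sequence identifiers, and no signal value enters that rule. Of these, 49 were found as rows of the deposited tables, which hold 23181 transcripts in all. The H3 gene his-40 (K03A1.1) had no row and was not analysed here.

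The values came from 4 single-colour NimbleGen arrays of total RNA from early embryos, labelled with Cy3 and numbered here as in the sample titles. All 4 arrays belong to 1 group, strain PFR40, a mutant with the tm1489 allele of hpl-2, the gene of a heterochromatin protein 1 homolog. The labels describe hermaphrodites with a few males, but the growth protocol speaks of gravid adults of N2, which is the wild type, and the labels do not settle this. The wild-type arrays to which the design text refers lie in a different series and were not analysed here, so no mutant against wild-type difference is reported. Whether the replicates came from separate cultures is not stated, so the p-values measure only the spread between these samples, which may be technical. The median signal of the arrays was 576 to 591 linear units, and their number limits the precision.

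Core histones are made in step with DNA replication, when new chromatin must be assembled. In animals their mRNAs typically end in a stem-loop in place of a poly(A) tail, and the stem-loop is bound by a dedicated binding protein. How the RNA was primed for labelling is not given in the sources used here. An early C. elegans embryo divides rapidly, and the oocyte supplies it with maternal mRNA. Because copies of a histone type are near identical in their coding sequence, a probe may collect RNA of several copies, and the signal printed for a gene may be shared with others of its type.

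The 49 genes comprised 13 H2A, 12 H2B, 11 H3 and 12 H4 genes, and his-39 (F45F2.2), which was left without a type. The RefSeq annotation of assembly WBcel235 gave every H3 gene a length of 411 bases and every H4 gene 312 bases. The H2B genes had 369 or 372 bases, and the H2A genes had 384 bases except his-57, whose annotated gene spans 1314 bases. With 204 bases, his-39 was shorter than any typed gene. The genes fell into 13 clusters, named by the part of the identifier before the dot. Chromosome V held 23 of the genes in 4 clusters, chromosome IV 20 in 6 clusters, chromosome II 3, chromosome I 2 and chromosome X 1. The largest cluster was K06C4 with 8 genes, followed by F07B7 with 6 and F45F2 with 5. Among protein-coding genes of the annotation, 37 pairs of listed genes were direct neighbours, of which 12 were an H2A beside an H2B gene and 11 an H3 beside an H4 gene. No 2 genes had the same values on all 4 arrays, since the 49 rows held 49 distinct sets of values.

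All 49 core histone genes gave signal above background. Chemoreceptor genes, a large family used by neurons, served as the background, taken on each array at their 95th percentile, which came to log2 signals of 8.09, 8.45, 8.26 and 8.48 on arrays 1 to 4. Of all transcripts, 55.1% were called above background by limma at an adjusted p under 0.05, and all 49 histone genes were (adjusted p from 2.58e-10 to 1.14e-07). A further 36.1% of transcripts were called below background, and no listed histone gene was among them. The copies are not independent of each other, so the count is not one of 49 separate observations. Their log2 signal above background ranged from 3.32 for his-39 to 6.20 for the H3 gene his-17, with a median of 4.24. The brightness of a probe depends on its own sequence, so the signals of different genes, here and in the following, are readings of their probes and their order is not an order of mRNA levels.

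**Figure D1:**
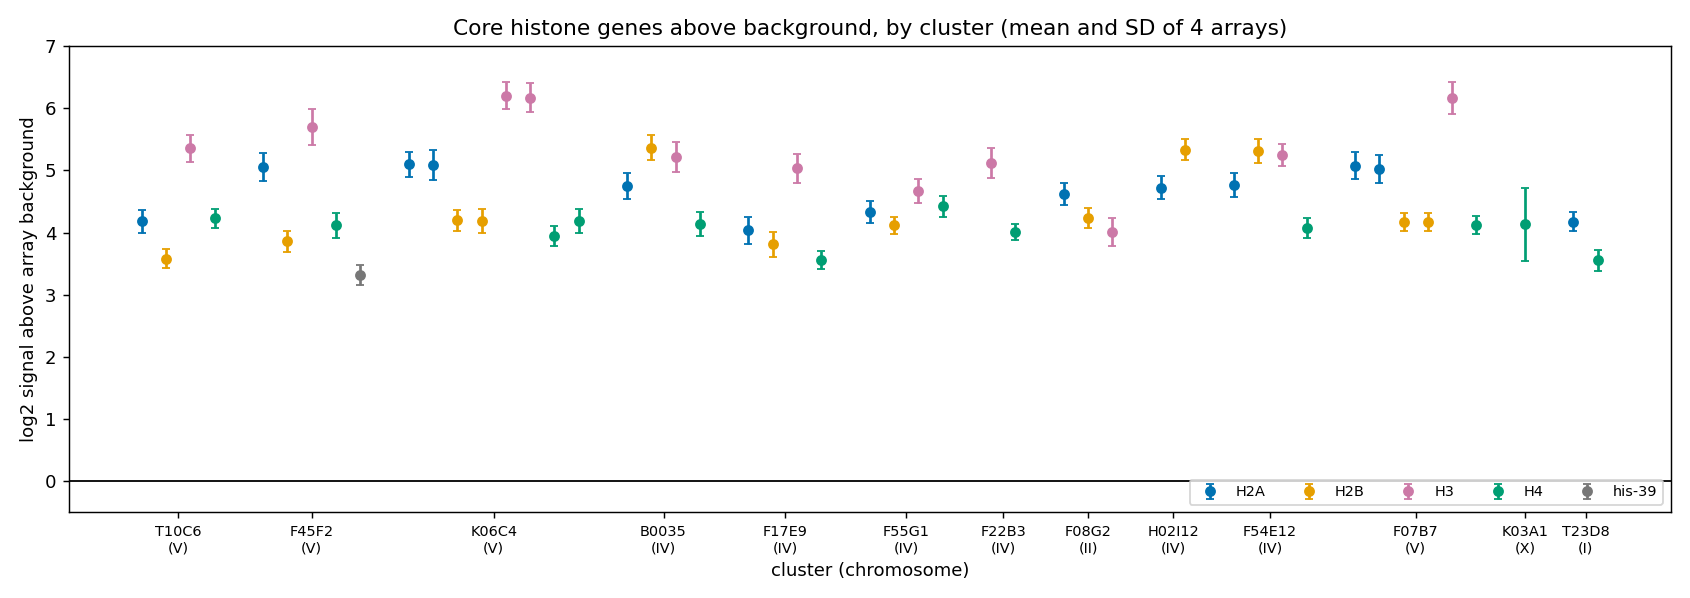
Log2 signal above array background (vertical axis) of the 49 core histone genes, grouped by cluster with the chromosome in parentheses (horizontal axis); points are means of 4 arrays, bars the SD, colours the histone type, and the line at 0 the background. Every gene lies above the line, from 3.32 for his-39 to 6.20 for his-17, and his-38 in K03A1 has the widest bar (SD 0.59). The bars also hold the differences of the background between arrays.

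H3 is the histone whose methylated tail HP1 proteins bind, and the readings of its genes fell into ranges by chromosome. The 5 H3 genes on chromosome V had mean signals of 13053 to 23489, the 5 on chromosome IV 8094 to 12112, and his-42 (F08G2.3), the only H3 gene of the list on chromosome II, 5134. The H3 gene his-17 (K06C4.5) gave signals of 23861, 22735, 24402 and 22958 on arrays 1 to 4, and these values stayed within a 1.07-fold range. It lay 6.20 ± 0.22 above background on the log2 scale (SD, n = 4; limma adjusted p = 2.58e-10). Each SD above background, here and in the following, also holds the differences of the background between arrays. The log2 signal of his-17 itself had an SD of 0.048. The H3 genes his-27 of the same cluster and his-49 of F07B7 had means of 22948 and 22854.

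The H3 gene his-55 (F54E12.1), in the middle of its type, gave 12299, 12636, 11576 and 11937. The H3 gene his-42 gave 4954, 5137, 5641 and 4802 and lay 4.01 ± 0.23 above background (SD, n = 4; limma adjusted p = 1.66e-09). The H3 gene with the largest spread, his-6 (F45F2.13), gave 17228, 15032, 18183 and 15907, an SD of 0.12 on the log2 scale. It was highest on array 3 and lowest on array 2, as was his-17, while his-55 ran the other way between these arrays.

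H4 genes, whose protein pairs with H3, had mean signals of 3742 to 6852. The H4 gene his-60 (F55G1.11) gave 6650, 7855, 6117 and 6786 on arrays 1 to 4, his-5 (F45F2.3) 5669, 6046, 5175 and 5254, and his-67 (T23D8.5) 3755, 3991, 3440 and 3780. All 3 were highest on array 2 and lowest on array 3. On the log2 scale his-60 lay 4.42 ± 0.16 and his-67 3.55 ± 0.16 above background (SD, n = 4; limma adjusted p = 4.64e-10 and 1.76e-09). The SD of his-60 between arrays, 0.15 on the log2 scale, was the largest of any listed histone gene apart from his-38, which is described separately.

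H2A genes, whose protein forms a dimer with H2B, had mean signals of 5234 to 10934. The H2A gene his-19 (K06C4.11) gave 11052, 11572, 10720 and 10393, his-47 (B0035.7) 8761, 9205, 8214 and 8111, and his-33 (F17E9.13) 5521, 5597, 4729 and 5089. Each was highest on array 2, and the lowest value was on array 4 for his-19 and his-47 and on array 3 for his-33. Of the 6 H2A genes on chromosome V, 5 had mean signals of at least 10410, and his-3 (T10C6.12) had 5797. The values of his-3 were 5801, 6553, 5196 and 5635, the widest spread of an H2A gene, with a 1.26-fold range. The most even of all listed genes was the H2A gene his-57 (F54E12.5), with a 1.04-fold range and a log2 SD of 0.026.

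H2B genes fell into sets of unequal probe reading, set apart after their values were seen. The 3 H2B genes his-48 (B0035.8), his-58 (F54E12.4) and his-66 (H02I12.6), all on chromosome IV, had means of 13174, 12735 and 12875. The other 9 H2B genes had means of 3819 to 6008, so no value of either set lay in the range of the other, and the 9 included his-34 and his-62 of the same chromosome. The H2B gene his-48 gave 12252, 12987, 14574 and 12884, his-52 (F07B7.4) 5531, 6108, 5640 and 5713, and his-4 (T10C6.11) 3614, 4299, 3672 and 3689. Of these, his-48 was highest on array 3, and his-52 and his-4 on array 2. The most variable H2B gene was his-62 (F55G1.3), with 4853, 5482, 5914 and 5902, lowest on array 1 and nearly equal on arrays 3 and 4.

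The untyped gene his-39, at the end of the F45F2 cluster beside his-5, gave 3009, 3556, 3155 and 3013. It lay 3.32 ± 0.17 above background (SD, n = 4; limma adjusted p = 2.87e-09) and was highest on array 2.

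**Figure D2:**
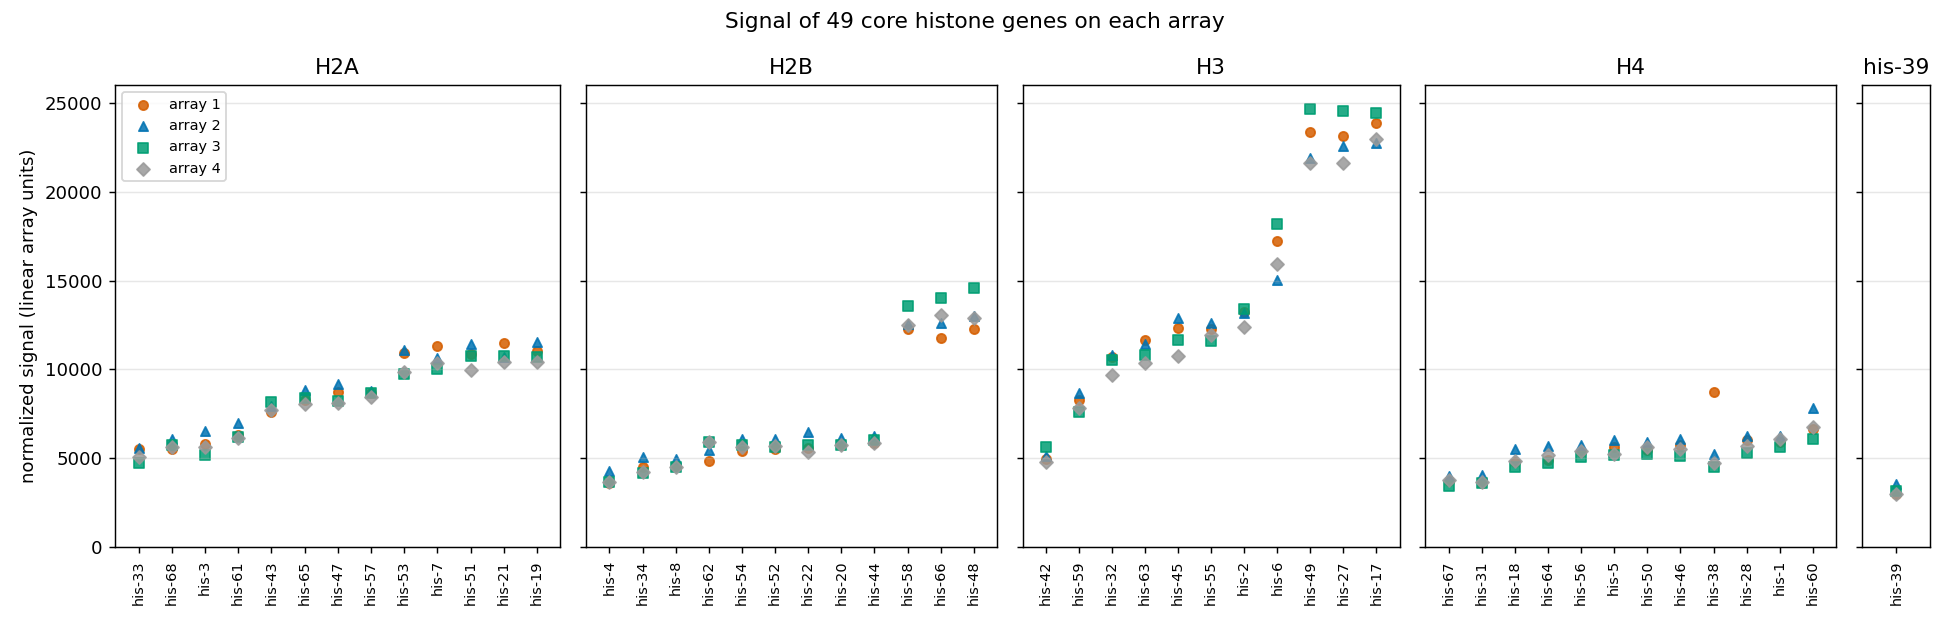
Normalized signal in linear array units (vertical axis) of each core histone gene (horizontal axis, ordered by mean within H2A, H2B, H3, H4 and his-39); markers are the 4 arrays. The H3 genes his-49, his-27 and his-17 sit between 21592 and 24619, the H2B genes his-58, his-66 and his-48 between 11788 and 14574, and array 1 of his-38 stands at 8748 above its other arrays.

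On the log2 scale the histone genes had a median SD of 0.083 between arrays and all transcripts above background one of 0.11, and 40 of the 49 genes were under the latter value. The highest signal of a gene was less than 1.4 times its lowest in 48 genes. The spread also differed with signal, as transcripts above background with signals between 3183 and 12112 had a median SD of 0.092 and those between 12735 and 23489 one of 0.057. Against these medians, 24 of the 41 histone genes in the lower range had a smaller SD and 17 a larger one, with a median of 0.083. Of the 8 in the upper range 6 had a larger SD and 2 a smaller one, with a median of 0.082. Beside transcripts of like signal, no lower spread of the histone genes as a whole was thus shown.

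The differences between arrays were alike among the H4 genes other than his-38 and split within the H3 and H2B genes. Each array is 1 sample, so they carry no test and describe these arrays only. Over the 11 H4 genes other than his-38, the signal on array 2 exceeded that on array 3 in every gene, by 0.14 to 0.36 on the log2 scale and by 0.22 at the median, a 1.17-fold difference. Array 2 was the highest array for all 11, and array 3 the lowest for 10, with his-31 lowest on array 1. Beside this, 30.3% of all transcripts were highest on array 2 and 19.6% were lowest on array 3. Near-identical copies may share signal, so the 11 genes are not separate observations. Of all transcripts, 54.5% were higher on array 2 than on array 3.

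H3 genes divided by chromosome on the same arrays. The 5 on chromosome V were higher on array 3 than on array 2, by 0.026 to 0.28 on the log2 scale, and the 5 on chromosome IV were lower, by 0.045 to 0.19. When the median of each array was subtracted, 4 of the 5 on chromosome V kept their direction, the exception being his-2 with the smallest difference, and all 5 on chromosome IV did. The difference between arrays 1 and 4 had the same sign in all 11 H3 genes, which were 0.043 to 0.20 higher on array 1. That direction was found in 42.2% of all transcripts.

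The H2A and H2B genes, neighbours in the genome and partners in the dimer, shared a pattern only in part. Array 2 was the highest for 10 of 13 H2A genes and for 8 of the 9 H2B genes of lower signal. Of all transcripts, 30.3% were highest on array 2. The 3 H2B genes of higher signal were all highest on array 3. All 13 H2A genes were higher on array 2 than on array 4, by 0.041 to 0.22 on the log2 scale, and 11 were higher on array 1 than on array 4. Among the H2B genes 4 of 12 were higher on array 1 than on array 4, as were 4 of 12 H4 genes and 42.2% of all transcripts. The 3 H2B genes of higher signal were higher on array 3 than on array 1, by 0.14 to 0.25, and higher on array 3 than on array 2, by 0.11 to 0.17. The other 9 H2B genes were higher on array 2 than on array 1, by 0.090 to 0.25. Shares of all transcripts were not computed for arrays 2 against 4, 3 against 1 and 2 against 1. The array pairs shown differ between the types and were picked with the values known. Agreement of all genes of a set on such a pair therefore carries no weight of its own.

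Gene by gene, the 8 listed genes of highest signal were higher on array 3 than on array 2, and 37 of the other 41 were higher on array 2. These 8 were the 5 H3 genes of chromosome V and the H2B genes his-48, his-58 and his-66. They were set apart after their values were seen. Among all transcripts above background, the share higher on array 2 was 51.7% in the signal range of the 8 genes and 50.6% in the range of the other 41. The exceptions among the 41 were his-42, his-62, his-43 and his-21.

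**Figure D3:**
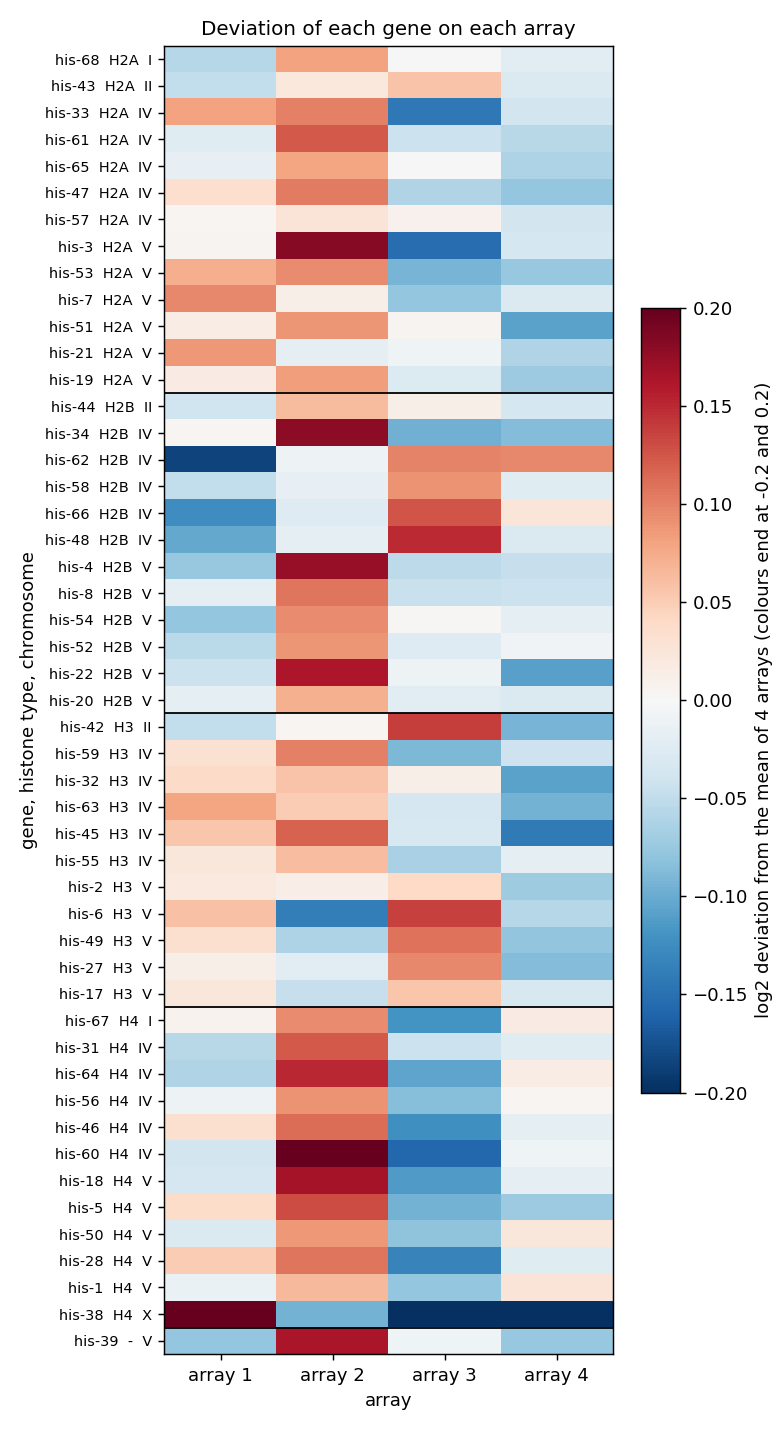
Log2 deviation of each core histone gene (rows, by histone type and chromosome) from its own mean over the 4 arrays (columns); red is above and blue below the mean, and colours end at -0.2 and 0.2, which the values of his-38 and his-60 exceed. H4 genes other than his-38 are red on array 2 and blue on array 3, while the H3 genes of chromosome V and his-48, his-58 and his-66 are red on array 3.

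Likeness of array pattern was measured for every pair of genes. The root mean square difference of the log2 deviations over the 4 arrays had a median of 0.062 for 254 pairs of the same type, his-38 and his-39 left out. It was 0.081 for 827 pairs of different type and 0.079 for the 79 of these within 1 cluster. Within types the medians were 0.045 for H4, 0.064 for H2A, 0.071 for H3 and 0.077 for H2B pairs. H3 and H4 genes of the same cluster differed by 0.12, and H2A and H2B genes of the same cluster by 0.068, which is less than the medians within H3 and within H2B. Pairs share genes, so these medians are descriptions without a test. The F07B7 neighbours his-52 and his-54, both H2B, had a difference of 0.020.

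The H4 gene his-38 (K03A1.6), the only measured histone gene of the list on chromosome X, departed from this pattern. Its signals were 8748 on array 1 and 5245, 4520 and 4732 on arrays 2 to 4. Array 1 exceeded the mean of the other 3 arrays 1.81-fold, while the widest range over the arrays of any other listed gene was 1.28-fold, in his-60. Its log2 SD was 0.44 with all 4 arrays and 0.11 without array 1. It lay 4.133 ± 0.59 above background (SD, n = 4; limma adjusted p = 1.14e-07), and 3.84 without array 1. The gap between array 1 and the next array as a share of the range did not pass Dixon's critical value for 4 values.

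Array 1 also stood apart in other genes. Of 1692 X-linked transcripts above background, 52.7% were highest on array 1, against 25.2% to 28.2% on chromosomes I to V. The median X-linked deviation on array 1 was 0.057, a value far under the 0.64 of his-38. On array 1, 182 of the X-linked transcripts (10.8%) deviated upward by at least as much as his-38, against 3.92% to 5.9% on chromosomes I to V. All 9 muscle markers were above background and none was at 0. Their summed signal came to 64714, 18467, 33132 and 23780 on arrays 1 to 4. This sum was lowest on array 2 and second highest on array 3, and so was each muscle marker except hlh-1. The signals of hlh-1 were 9449, 8086, 7238 and 8260, highest on array 1 and lowest on array 3. For his-38 the highest value was also on array 1, the second highest on array 2 and the lowest on array 3. The part of these differences in the his-38 result was not tested. In bulk samples, fewer cells of a type and less RNA per cell cannot be told apart.

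Few of the genes beside his-38 in the annotation had a signal above background to compare with it. The next measured protein-coding gene on one side, sur-5, gave 4708, 5088, 5126 and 5008 and was lowest on array 1. Past the below-background gene K03A1.4, lron-7 gave 4679, 4368, 4620 and 4361. It was highest on array 1, with a deviation of 0.055 there against 0.64 for his-38. On the other side, past his-40, the saposin-like genes spp-3, spp-2, spp-6 and spp-4 were below background. Of the other histone genes on chromosome X, the H3 variant gene his-71 gave 4339, 3445, 3351 and 3133, and the linker histone gene hil-3 20201, 17836, 16623 and 16705, both highest on array 1. The linker histone gene his-24, also X-linked, gave 48080, 48345, 46221 and 46144, with arrays 1 and 2 nearly equal. Not only X-linked histone genes were high on array 1, since the linker histone gene hil-7 on chromosome IV gave 16558, 7950, 10131 and 8891, a 2.08-fold range.

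**Figure D4:**
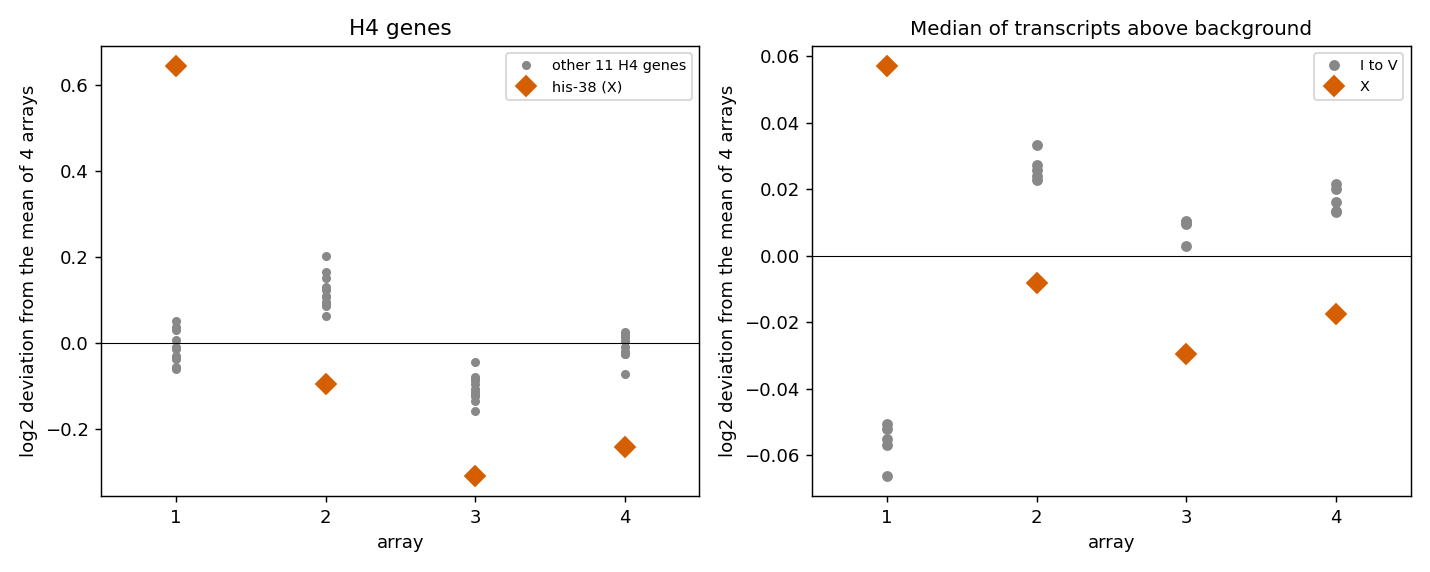
Log2 deviation from the mean of 4 arrays (vertical axes, of different scale) on each array (horizontal axes); left, his-38 as diamonds and the other 11 H4 genes as dots, right, the median of transcripts above background on chromosome X as diamonds and on chromosomes I to V as dots. On array 1 his-38 lies at 0.64 while the other H4 genes lie near 0, and the X-linked median lies at 0.057 while the autosomal medians lie between -0.066 and -0.051.

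Core histone genes outside the list were above background too. Of 16 such genes, 15 were measured and all 15 were above background, with a median of 4.23 on the log2 scale. They include the ZK131 cluster on chromosome II, which directly adjoins the listed F08G2 cluster. The 3 measured H4 genes there, his-10, his-14 and his-26, lay 2.95, 2.99 and 3.00 above background. The 3 H3 genes his-9, his-13 and his-25 each lay at 4.36. In the C50F4 cluster on chromosome V, his-41, a core histone gene, gave 5970, 5129, 4867 and 5412 and was highest on array 1. Over the 15 genes the median deviations were -0.028, 0.097, -0.038 and -0.047 on arrays 1 to 4, and over the 49 listed genes 0.0039, 0.087, -0.032 and -0.037. The median over all transcripts above background was -0.047, 0.023, 0.0035 and 0.014.

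Histone variants, which are made throughout the cell cycle, and linker histones were above background in 14 of 16 cases. The H3.3-type gene his-72 lay 6.61 ± 0.22 above background and the H2A variant gene htz-1 6.99 ± 0.19 (SD, n = 4; limma adjusted p = 2.58e-10 for both). The exceptions were his-69, called below at -0.59 (limma adjusted p = 0.000579), and his-70, which at 0.098 was not told apart from background (limma adjusted p = 0.309).

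Genes that act on histone mRNA and histones gave signal throughout. All 8 genes of histone mRNA processing were above background. The stem-loop binding protein gene cdl-1 lay 6.34 ± 0.15 above it on the log2 scale (SD, n = 4; limma adjusted p = 2.58e-10). In C. elegans the small RNA genes csr-1, ego-1, drh-3 and ekl-1 are needed for normal maturation of histone mRNA, and they lay between 3.70 for ego-1 and 4.16 for ekl-1, with csr-1 at 3.88. The cleavage factor genes cpsf-2, cpsf-3 and symk-1 lay at 5.47, 4.96 and 4.67.

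The small RNA gene ego-1, an RNA-dependent RNA polymerase, had signals of 3067, 4376, 4945 and 4485 on arrays 1 to 4, a 1.61-fold range. The Argonaute gene csr-1 had 3857, 4873, 5233 and 4888. Both were lowest on array 1 and highest on array 3, as were the H2B genes his-48, his-58, his-66 and his-62 and the H2A gene his-43. The stem-loop binding protein gene cdl-1 had 24349, 26293, 26662 and 26073, lowest on array 1 as well. Among all transcripts above background, 51.4% were lowest on array 1 and 20.9% were highest on array 3.

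All 12 histone chaperone genes and all 11 DNA synthesis genes were above background. Of the chaperones that hand H3 and H4 to new DNA, the CAF-1 subunit genes chaf-1, chaf-2 and rba-1 lay at 4.29, 4.33 and 6.03 and lin-53, an RbAp46/48 homolog, at 6.37. In the DNA synthesis list pcn-1, the sliding clamp, lay at 6.74, the ribonucleotide reductase genes rnr-1 and rnr-2 at 6.43 and 6.49, and the licensing factor gene cdt-1 at 5.45. Their median deviations on arrays 1 to 4 stayed within 0.05 of 0 on the log2 scale for both lists. The muscle list reached 1.32 on array 1 and -1.07 on array 2, whereas the median deviation of the listed histone genes had a range of 0.12 over the arrays, or 0.037 without array 2.

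**Figure D5:**
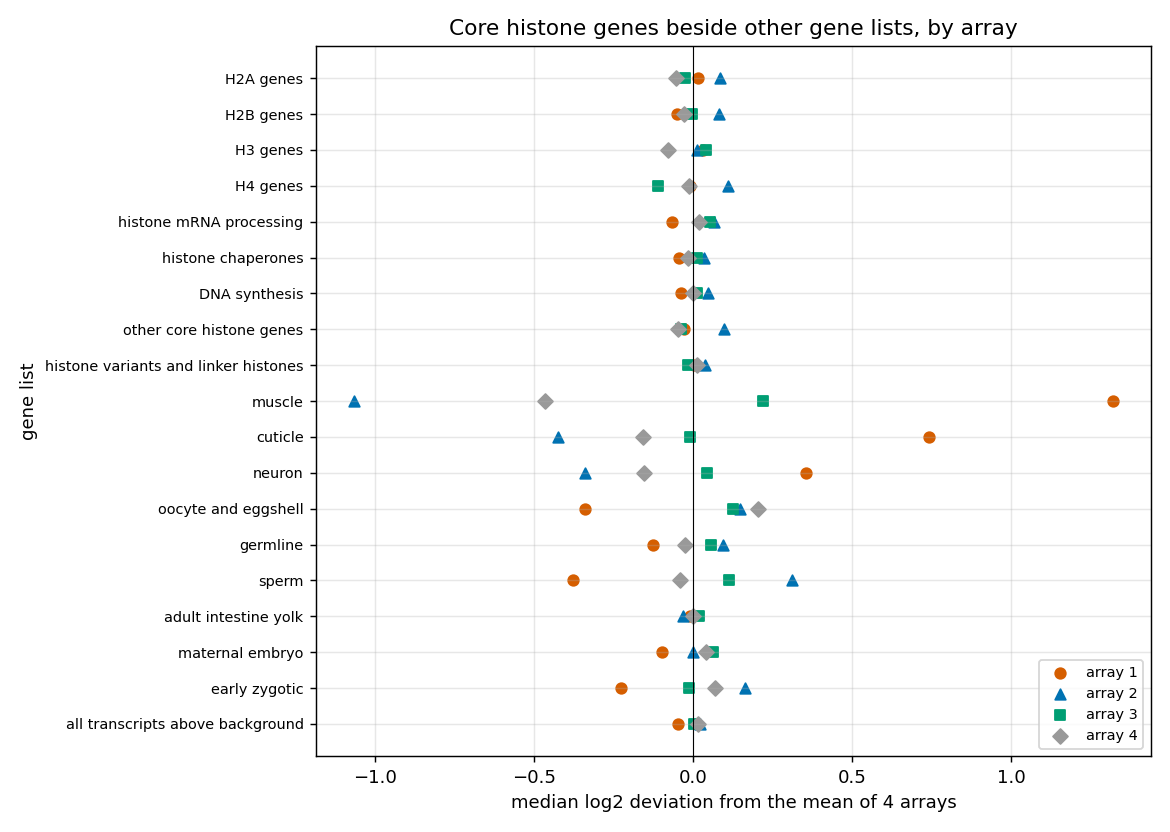
Median log2 deviation from the mean of 4 arrays (horizontal axis) for each histone type and for other gene lists (vertical axis), with 1 marker for each array. The histone types stay between -0.11 and 0.11, whereas the muscle list runs from -1.07 on array 2 to 1.32 on array 1.

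The remaining marker lists moved in different directions on array 1. Their deviations are medians over all measured genes of a list, those not above background included. Cuticle markers deviated by 0.74 on array 1 with 4 of 5 above background, and neuron markers by 0.35 with 2 of 4. Oocyte and eggshell markers deviated by -0.34 with 5 of 7 above, sperm markers by -0.38 with 3 of 5, early zygotic genes by -0.23 with 4 of 5, germline genes by -0.13 with 5 of 5 and maternal genes by -0.098 with 5 of 5. The neuron value lay between those of snt-1 and rab-3, neither of which was above background. The sperm value was that of msp-3, which lay only 0.42 above background. None of the 6 yolk genes was above background. The part of these differences in the histone values was not tested.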

How the data were processed

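Each deposited table gives 1 linear array intensity for each transcript. Per the file headers and names, the authors had quantile normalized and averaged these signals. The sources used here do not give the scanner, background correction, probes per transcript or genome build. Quantile normalization hides any shift common to most transcripts. The genes and lists were chosen with earlier results of these data known. Names, lengths and gene order came from the RefSeq table of assembly WBcel235. Of 23181 transcripts, 17151 matched as written, 5352 without the isoform letter and 678 not at all. Values were taken as log2, less the 95th percentile over 1343 chemoreceptor genes on each array, and fitted with limma 3.58.1 (intercept only, two-sided, R 4.3.3) with Benjamini-Hochberg adjustment over all transcripts. A gene took its transcript with the highest mean. The fit was tested on simulated data. Histone types were assigned by gene name and checked against annotated length. Genes named with all values were, for each type, those with the lowest, median and highest mean and the largest SD, and others set apart after their values were seen. The listed gene his-36 was not analysed here. No sequences are shown.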

Additional observations from a re-analysis of the deposited data

Results flagged for a closer look

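In 5 of the 49 histone genes the signal on 1 array lay far from the other 3, measured as the gap to the nearest array divided by the whole range, and in each of them it was array 2, the highest. The ratio was 0.891 for his-4, 0.849 for his-8, 0.903 for his-20, 0.833 for his-31 and 0.84 for his-61, each above Dixon's 95% critical value for 4 values. These ratios are of the linear signal, and on the log2 scale that of his-31 was 0.824, under the critical value, while the other 4 genes stayed above it. Chance alone marks about 1 gene in 20 where values are normally distributed, and near-identical copies are not independent. The share of all transcripts above the same critical value was not computed. The ranges themselves were small, from 1.07-fold for his-20 to 1.19-fold for his-4. Array 2 was the highest array for 34 of the 49 genes, against 28.5% of all transcripts above background.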

How the results depend on the processing

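All 49 histone genes stayed above background with each of the 8 other settings tried (a background at the 99th or the 75th chemoreceptor percentile or at the 25th percentile over all genes, one background for all arrays, a floor of 16, limma without moderation, a filter on low values and the table of the whole series) and with each replicate left out. The lowest signal on any array was 100.62, so the floor of 16 altered no value. Signals read from the series-wide table matched those in the main fit exactly. Neither of these settings could change a call, so they only repeat the main result and are no check of it. The share of all transcripts above background ran from 47.0% to 72.6% over the settings that kept all transcripts. With 1 replicate left out it was 53.6% to 55.5%. The filter on low values gave 73.2%, which is a share of the transcripts it kept. The range over arrays of the median histone deviation, 0.12 on the log2 scale, was 0.037 to 0.12 with 1 array left out, the lowest without array 2. For H2A it was 0.14, and 0.073 to 0.14 with 1 array left out, the lowest without array 2. For H2B it was 0.13, and 0.055 to 0.14, the lowest without array 2. For H3 it was 0.12, and 0.026 to 0.13, the lowest without array 4. For H4 it was 0.22, and 0.092 to 0.22, with 0.092 without array 2 and 0.11 without array 3. Leaving out his-38, an alternative added after seeing the data, gave 0.22 for H4. These ranges rest on single arrays by construction. No paired analysis was possible because the samples form 1 group.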
